A study of Homo sapiens with 6 samples.

Results

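The genes described here are 10 keratins measured in U2OS, an established osteosarcoma cell line, which is a tumour line of the bone-forming lineage and not of an epithelium. They are KRT7, KRT8, KRT10, KRT18, KRT19, KRT75, KRT79, KRT80, KRT81 and KRT222, which are 10 of the 55 keratin genes and of the 50550 rows of the count table. The 10 were chosen by measured values of these same libraries, and the rule that lists them does not say by which value. Their levels and their differences between groups are therefore given as a description, and no p-value is printed for a member. Counts of members past a threshold, and intervals, serve that description and are not a test of the list. The remaining 45 keratin genes come from the nomenclature alone, and for these the test is reported.

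Keratins are the intermediate filament proteins of epithelial cells. A type I and a type II chain pair with each other to build the filament, and each epithelium uses its own pairs: KRT8 with KRT18 in simple epithelia, KRT5 with KRT14 in basal epidermis, and the hair keratins in the hair shaft. Cells of mesenchymal origin build their filaments mainly from vimentin, and keratins in a sarcoma are usually read as an epithelial trait. Of the 10 genes, KRT7, KRT8, KRT75, KRT79, KRT80 and KRT81 are type II, and KRT10, KRT18, KRT19 and KRT222 are type I or type I-like.

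The study has 2 groups of 3 RNA-seq libraries of total RNA from this line. One is titled Lv_LINC00673 and has the genotype label LINC00673, a long noncoding RNA whose knockdown the series describes. The other is titled Lv_NC, with the genotype label NC. The labels do not spell out Lv or NC, and the series design speaks of wild-type cells, so whether Lv_NC carries a vector is not known. Fold changes divide Lv_LINC00673 by Lv_NC throughout. As no label ties the 3 libraries of a group to separate cultures, a p-value here measures the spread between libraries alone, and that spread may be technical. No knockdown reagent or clone number is given.

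Total counts ran from 61815841 to 87227980 per library and were higher in each Lv_NC library than in each Lv_LINC00673 library. LINC00673 itself was at 6.55, 6.23 and 6.38 TMM-scaled CPM, counts relative to the library's size, in Lv_LINC00673 and at 9.16, 9.27 and 7.08 in Lv_NC. That is 75.1% of the Lv_NC level, a log2 fold change of -0.41 that did not pass the threshold (edgeR adjusted p = 0.0924). Among bone and mesenchymal markers, SPARC and COL1A1 were abundant, with mean FPKM (fragments scaled to transcript length and sequencing depth) of 147 and 33.0 in Lv_NC. RUNX2 (0.296) and BGLAP (0.220) were low, SP7 was at 0.0284, and TWIST1 was listed at 0. Of 14 blood and endothelial markers, LYZ and HBB were listed at 0 and CD68, a lysosomal protein not limited to blood cells, made up most of the summed FPKM, which ran from 37.1 to 42.2 in Lv_LINC00673 and from 31.8 to 42.6 in Lv_NC.

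Near-identical sequence between keratins bears on how reads were assigned. Over the whole KRT81 transcript, 679 of 1855 windows of 75 bases occur in another annotated transcript on either strand, 612 of them in KRT86. KRT81 lies at chr12:52285913-52291534 on the minus strand, within the span of KRT86 on the plus strand, and whether the authors counted reads by strand is not stated. In the deposited counts, KRT86 held 0.0749 to 0.225% of the KRT81 and KRT86 reads of a library. How many KRT81 reads came from its near copies cannot be read from these counts.

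Shared sequence varied among the members. KRT18 (chr12:52948871-52952901) shares 380 of 1488 windows, 293 of them with KRT8 (chr12:52897187-52949954), whose annotated span overlaps it on the opposite strand. KRT8 shares 384 of 2052 windows, 190 of them with the pseudogene KRT8P3. KRT222 has the largest shared part of the 10, 936 of 1638 windows. All are shared with a gene model that overlaps it on the same strand, so its row is uncertain. For KRT10, KRT19, KRT79 and KRT80 no window was shared. All 6 type II members and KRT18 lie in the keratin cluster of chromosome 12, between 52168996 (KRT80) and 52952901 (KRT18). KRT10, KRT19 and KRT222 lie on chromosome 17, between 40654665 (KRT222) and 41528308 (KRT19).

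**Figure D1:**
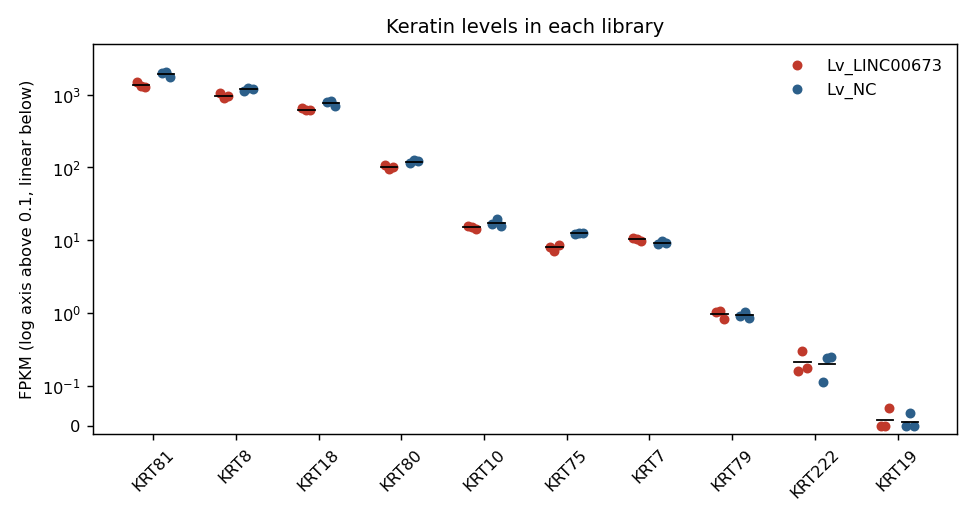
Deposited FPKM of the 10 keratins (vertical axis, logarithmic above 0.1 and linear below) in each library, red for Lv_LINC00673 and blue for Lv_NC, with a bar at each group mean. KRT81, KRT8 and KRT18 lie between 609.7 and 2085 in every library, while KRT19 is at 0 in 4 of 6.

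KRT8 and KRT18, the simple epithelial pair, were among the most abundant transcripts of this line. The FPKM of KRT8 was 1059, 897 and 954 in Lv_LINC00673 and 1126, 1233 and 1214 in Lv_NC, where its mean ranked 88 among all rows. The FPKM of its partner KRT18 was 653, 609.7 and 619 in Lv_LINC00673 and 805, 813 and 710.0 in Lv_NC, with rank 127. For both genes every Lv_LINC00673 library lay below every Lv_NC library. On the TMM scale KRT8 was at 72.8% of its Lv_NC level, a log2 fold change of -0.46 (SE 0.10, 95% interval -0.68 to -0.24), and KRT18 at 72.2%, or -0.47 (SE 0.09, -0.67 to -0.27). The ratio of KRT8 to KRT18 FPKM was 1.55 ± 0.0756 (SD, n = 3) and 1.54 ± 0.157 (SD, n = 3), so the pair was lower to a similar extent. From bulk RNA, fewer cells with a transcript and less of it per cell cannot be told apart.

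KRT81, a type II keratin of the hair cortex, was the most abundant keratin in these cells. Its FPKM was 1519, 1311 and 1282 in Lv_LINC00673 and 1966, 2085 and 1740.2 in Lv_NC, where its mean ranked 46. The groups did not overlap, and the TMM level was 63.5% of that in Lv_NC (log2 fold change -0.65, SE 0.11, 95% interval -0.90 to -0.41). Its ratio to KRT8 was 1.41 ± 0.0619 in the Lv_LINC00673 libraries and 1.62 ± 0.167 in those of Lv_NC (SD, n = 3 each), and the ratios of the 2 groups overlapped (highest 1.46 and lowest 1.43).

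KRT75, a type II keratin of the companion layer of the hair follicle, had the lowest fold change of the 9 members that could be fitted. Its FPKM was 8.15, 7.12 and 8.67 in Lv_LINC00673 and 12.2, 12.5 and 12.4 in Lv_NC. This is 57.8% of the Lv_NC level on the TMM scale (log2 fold change -0.79, SE 0.12, 95% interval -1.08 to -0.51). KRT80, a type II keratin found near desmosomes in many epithelia, had an FPKM of 107, 96.7 and 103 in Lv_LINC00673 and 114, 126 and 121 in Lv_NC, again without overlap. Its log2 fold change was -0.40 (SE 0.09, 95% interval -0.60 to -0.20).

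KRT10, the type I keratin of suprabasal epidermis, was at 15.8, 15.4 and 14.4 FPKM in Lv_LINC00673 and at 16.8, 19.6 and 15.8 in Lv_NC. These FPKM values overlapped, while its TMM CPM did not (30.1 to 34.4 against 37.0 to 46.9). Its log2 fold change was -0.36 (SE 0.12, 95% interval -0.63 to -0.08). The KRT10 annotation is overlapped on the other strand by TMEM99, and reads of overlapping genes cannot be told apart where counting ignores strand.

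KRT7, a type II keratin of glandular and ductal epithelia, showed no separation of the groups. Its FPKM was 10.6, 10.4 and 9.71 in Lv_LINC00673 and 8.76, 9.74 and 9.06 in Lv_NC. The log2 fold change on the TMM scale was -0.04 (SE 0.12, 95% interval -0.32 to 0.24), and it became 0.13 with library totals alone. As KRT75 was lower and KRT7 was not, their order differed between groups: KRT75 lay above KRT7 in each Lv_NC library and below it in each Lv_LINC00673 library. Apart from this pair, the order by FPKM was KRT81, KRT8, KRT18, KRT80, KRT10, KRT75 and KRT7, KRT79, KRT222 and KRT19, and no neighbours in it overlapped within a group.

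KRT79, a type II keratin of the hair canal and sebaceous duct, was near 1 FPKM, at 1.03, 1.07 and 0.822 in Lv_LINC00673 and 0.892, 1.01 and 0.858 in Lv_NC. KRT222, a short keratin-like gene, was at 0.159, 0.295 and 0.176 and at 0.113, 0.238 and 0.245. The groups overlapped for both genes. Their intervals were wide (-0.56 to 0.40 for KRT79 and -1.07 to 0.89 for KRT222, log2), and both fold changes, -0.08 and -0.09, turned above 0 with library totals alone. KRT19, the small type I keratin of simple and ductal epithelia, had 4 counts in 1 library of each group and 0 in the other 4. A count of 0 allows up to 3 counts, which is 0.0344 to 0.0485 CPM of the library totals, so KRT19 was not detectable above a few reads at this depth and was not tested.

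Among the 9 tested members, 5 were lower past an adjusted p of 0.05 (KRT75, KRT81, KRT18, KRT8 and KRT80) and 0 were higher in edgeR's quasi-likelihood test over 21933 genes. The member values may have entered the choice of the list, so these counts are a description. Of all genes tested, 26.8% were called in either direction, 12.5% lower and 14.3% higher. At an unadjusted p under 0.05, 6 members were lower and 0 higher, beside 18.5 and 21.3% of all genes (39.8% in all). DESeq2 called 6 lower and 0 higher, beside 16.8 and 16.7% (33.5% in all), and limma on FPKM 4 lower and 0 higher, beside 5.59 and 14.7% (20.3% in all). Groups did not overlap in TMM CPM for 6 members, all lower in Lv_LINC00673, and for 45.1% of all genes tested. The median log2 fold change was -0.40 over the tested members and 0.05 over all genes. Without Lv_LINC00673 library 3 the count of members called was 3, and that of all genes was 2830. Leaving out Lv_LINC00673 library 2, Lv_NC library 2 or Lv_NC library 3 also moved the count over all genes from 5883, to 2716, 3631 and 2913, with 4, 5 and 4 members called.

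**Figure D2:**
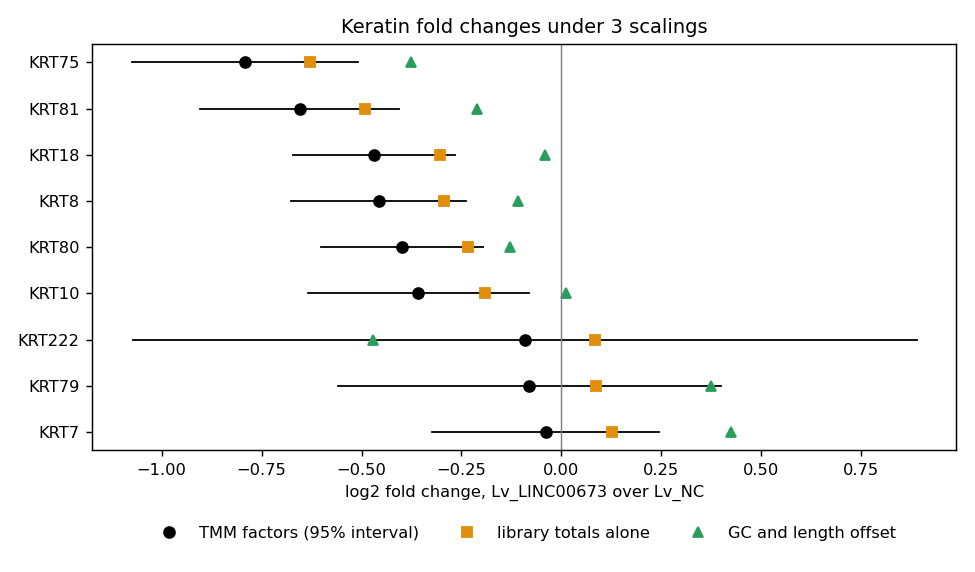
Log2 fold change (horizontal axis) of the 9 tested keratins with TMM factors (black, with the 95% interval), with library totals alone (orange) and with an offset for GC content and length (green). KRT75, KRT81, KRT18, KRT8 and KRT80 lie below 0 under all 3, with values nearest 0 for the offset.

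The scaling moved all keratins together. With library totals in place of TMM factors the median of all genes went from 0.05 to 0.22, a shift of 0.17, and the share of higher genes among the calls from 53.5 to 76.8%. The 5 lower members stayed below 0, with KRT81 at -0.49, KRT75 at -0.63, KRT18 at -0.30, KRT8 at -0.29 and KRT80 at -0.23. A change of factors shifts all genes nearly alike, so values relative to the median of all genes could hardly change. Relative to it, KRT81 was at -0.71 under both scalings and KRT8 at -0.51 under both. With the GC and length offset, KRT81 was at -0.33 and KRT8 at -0.23 relative to the median of that fit.

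The fold changes also depended on whether an offset for GC content and transcript length was used. The transcripts of the 5 lower members have 56.8 to 62.3% GC, that of KRT79 58.9%, that of KRT7 62.9%, that of KRT10 52.0% and that of KRT222 37.4%. These values are of the main coding transcript of each gene, while the offset uses the longest annotated transcript. With an offset that removes each library's trend with GC and length, KRT75 was at -0.38, KRT81 at -0.21, KRT80 at -0.13, KRT8 at -0.11 and KRT18 at -0.04. Under it, 2 members were called lower (KRT75 and KRT81) and 1 higher (KRT7, at 0.42), and KRT10 was at 0.01. Of the 16180 genes in that fit, 31.5% were called, 11.9% lower and 19.6% higher. The centre of the offset matters: with its own centre instead of TMM factors, 4 members were called lower and 1 higher, beside 14.9 and 18% of all genes (32.9% in all). The median of all genes was 0.12 and 0.07 under these fits. The part of GC content and length in the lower keratin values was not tested.

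**Figure D3:**
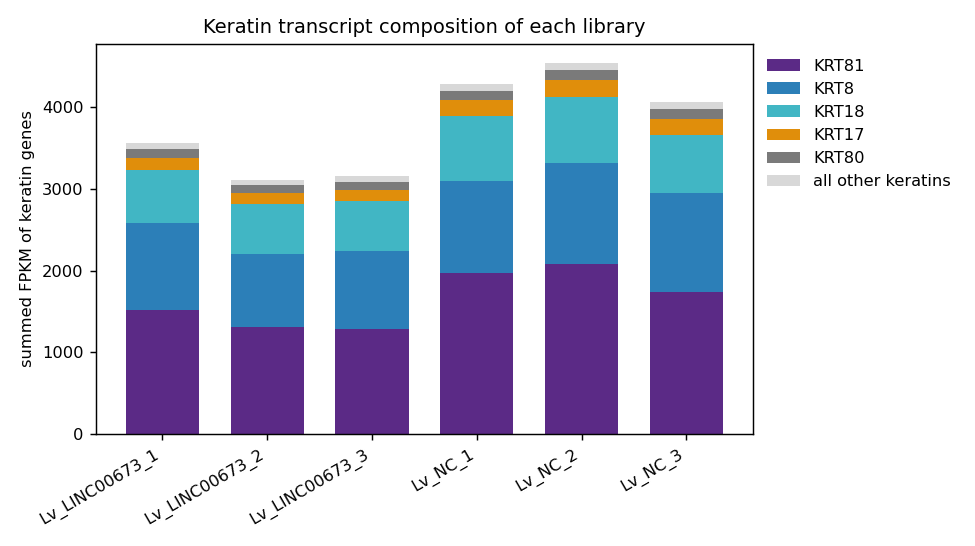
Summed FPKM of all 55 keratin genes (vertical axis) in each library, stacked by gene. The sum is 3116 to 3561 in Lv_LINC00673 and 4068 to 4550 in Lv_NC, and KRT81, KRT8 and KRT18 fill most of every bar.

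The summed FPKM of all keratin genes was 3279 ± 245 in the Lv_LINC00673 libraries and 4302 ± 241 in those of Lv_NC (SD, n = 3 each), and keratin rows held 0.627 ± 0.0476% and 0.821 ± 0.0459% of all counts. KRT81, KRT8 and KRT18 made up 90.5% of the keratin FPKM over the 6 libraries, and the 10 members 94.7 ± 0.0395% and 94.3 ± 0.268% in the groups. Within the sum, KRT81 took 41.8 ± 1.07% in Lv_LINC00673 and 44.8 ± 1.76% in Lv_NC, KRT8 took 29.6 ± 0.722% and 27.7 ± 1.88%, and KRT18 took 19.2 ± 0.720% and 18.0 ± 0.668%. The shares of these 3 keratins changed less than the sum did, but as they make up most of it, their joint share could move little. The share of KRT34 went from 0.431 ± 0.0826% in Lv_NC to 0.270 ± 0.0198% in Lv_LINC00673. The GC and length offset was not applied to these FPKM values. Type II chains exceeded type I chains 3.02 ± 0.126-fold in Lv_LINC00673 and 3.15 ± 0.0903-fold in Lv_NC, with most of the excess from KRT81.

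The 45 other keratins were mostly silent. Of these, 16 had no count in any library, 15 had 1 to 29 counts over all 6, and 14 had at least 30. KRT17, a type I keratin of activated and basal keratinocytes, was the only abundant one, with 139 ± 11.0 FPKM in the Lv_LINC00673 libraries and 196 ± 7.99 in those of Lv_NC (SD, n = 3 each). KRT15, a basal type I keratin, was at 22.5 ± 1.07 and 25.6 ± 0.978 FPKM, and KRT34, a type I hair keratin, at 8.82 ± 0.0777 and 18.5 ± 3.47.

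Of the 12 other keratins tested, 4 fell and 0 rose in edgeR, beside 12.5 and 14.3% of all genes. With the GC and length offset the counts were 2 lower and 3 higher, beside 11.9 and 19.6%, and the list's median went from 0.03 to 0.53. At an unadjusted p under 0.05 there were 4 lower and 1 higher, beside 18.5 and 21.3%. DESeq2 called 4 lower and 0 higher, beside 16.8 and 16.7%, and limma on FPKM 3 lower and 0 higher, beside 5.59 and 14.7%. KRT34 fell by 1.23 on the log2 scale (SE 0.15, edgeR adjusted p = 0.00324) and KRT6A, a stress keratin of the epidermis, by 1.20 (SE 0.25, edgeR adjusted p = 0.0113). KRT17 fell by 0.65 (SE 0.10, edgeR adjusted p = 0.00492) and KRT15 by 0.32 (SE 0.10, edgeR adjusted p = 0.0367). For each of these 4 genes, all Lv_LINC00673 libraries were below all Lv_NC libraries. KRT34 has a numbered copy row, KRT34-2, at -1.73 (edgeR adjusted p = 0.0045). How reads of the locus were assigned between the copies is not known. With the GC and length offset, KRT34 was at -0.79, KRT6A at -0.78, KRT17 at -0.18 and KRT15 at -0.17, and the calls of KRT6A and KRT15 were lost (edgeR adjusted p = 0.0599 and 0.114). The call of KRT15 rested on single libraries as well: it held in 1 of the 6 fits that left out a library, without Lv_LINC00673 library 1, and was lost in the other 5 (edgeR adjusted p up to 0.112). It was also lost with library totals alone and in limma on FPKM. KRT34, KRT17 and KRT6A kept their calls in all 6 of those fits.

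The other 8 of these 12 keratins did not pass, and all were under 1 FPKM in both group means. KRT5 and KRT14, the basal epidermal pair, were at 0.116 ± 0.0620 and 0.642 ± 0.302 FPKM in Lv_LINC00673 and at 0.0497 ± 0.0590 and 0.539 ± 0.166 in Lv_NC (SD, n = 3 each). KRT6B (log2 fold change 1.11), KRT16 (0.49), KRT13 (0.06), KRT33B (0.01) and KRT71 (-0.31) did not pass either. With the GC and length offset KRT6B was at 1.48 and KRT16 at 0.97, and both were called higher (edgeR adjusted p = 0.0468 and 0.0252). KRT86, the near copy of KRT81, was at 0.27 (SE 0.25, edgeR adjusted p = 0.462), and at 0.71 with the offset, where it was called higher (edgeR adjusted p = 0.0415). KRT12 and KRT83 had too few counts to be tested. The median over the 12, 0.03 with TMM factors beside 0.05 for all genes, weights each gene alike, and the 4 that fell include the 3 most abundant of the 12.

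Promoter sequence was at hand for 4 members, KRT8, KRT10, KRT75 and KRT79. Shown are the 250 bases before the RefSeq start site (GRCh38.p14), 5′ to 3′ on the gene's strand. They are from 2 members that were lower and from KRT79, which was not called. Capitals mark matches to 5 motifs, searched on both strands. TATAAA is the core of the TATA box, and ATAAAA is a variant that can overlap it. CCAAT is known as the CAAT box. GGGCGG is the core bound by SP1, and TGACTCA is that bound by AP-1.
KRT8, chr12:52926470-52926719, minus strand: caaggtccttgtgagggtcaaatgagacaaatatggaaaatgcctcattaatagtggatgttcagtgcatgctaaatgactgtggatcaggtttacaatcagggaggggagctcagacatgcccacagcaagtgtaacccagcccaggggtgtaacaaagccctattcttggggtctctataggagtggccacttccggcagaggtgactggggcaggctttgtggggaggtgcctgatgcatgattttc
KRT75, chr12:52434372-52434621, minus strand: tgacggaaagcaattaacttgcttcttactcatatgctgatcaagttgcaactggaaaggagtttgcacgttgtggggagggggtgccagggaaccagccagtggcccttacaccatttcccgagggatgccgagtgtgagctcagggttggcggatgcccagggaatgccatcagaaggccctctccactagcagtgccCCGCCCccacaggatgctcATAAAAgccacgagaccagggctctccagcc
KRT79, chr12:52834312-52834561, minus strand: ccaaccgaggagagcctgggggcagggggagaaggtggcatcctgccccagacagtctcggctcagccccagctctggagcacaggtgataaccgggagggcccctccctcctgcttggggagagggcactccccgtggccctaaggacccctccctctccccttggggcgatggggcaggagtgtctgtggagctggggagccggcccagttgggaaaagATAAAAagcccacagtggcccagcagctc
ATAAAA begins 31 bases before the start site in KRT75 and 29 before it in KRT79, and TATAAA begins 29 before it in KRT10. A match to one of these motifs on the gene's strand, beginning 40 to 20 bases before the start, occurs in 3.23% of 35116 RefSeq promoters. The window of KRT8 holds none of the 5 motifs. That window lies inside the annotated KRT8 span, which reaches chr12:52949954, so KRT8 has other annotated starts. The KRT75 window lies partly inside the annotated KRT75 span, which reaches chr12:52434525, so KRT75 also has another annotated start. Windows of those starts are not described here, and which start these cells use was not tested. KRT75 also holds GGGCGG, read on the other strand 50 bases before the start, a motif found in 42.6% of promoters. KRT10 also holds CCAAT, found in 32% of promoters, and ATAAAA 239 bases before the start. None of the 4 windows holds TGACTCA, which is present in 4.2% of promoters. Anywhere in the window, TATAAA occurs in 10.7% of promoters, and 14.8% hold ATAAAA. KRT75 and KRT79 both hold a TATA-like match, and their log2 fold changes were -0.79 and -0.08. The interval of KRT79 was wide (-0.56 to 0.40), and any link between the motifs and these values was not tested.

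Genes of other filament systems, filament attachments and cell identity were set beside the keratins, in lists drawn up with earlier results of these data known. Vimentin, the filament protein of mesenchymal cells, rose. VIM was at 1377 ± 76.2 FPKM in the Lv_LINC00673 libraries and 998 ± 53.4 in those of Lv_NC (SD, n = 3 each), a log2 fold change of 0.34 (SE 0.08, edgeR adjusted p = 0.014), and 0.48 with the GC and length offset. The ratio of VIM to KRT8 FPKM was 1.42 ± 0.0407 in Lv_LINC00673 and 0.839 ± 0.0564 in Lv_NC (SD, n = 3 each), so VIM lay above KRT8 in each Lv_LINC00673 library and below it in each Lv_NC library. VIM lost its call without Lv_LINC00673 library 2 or without Lv_NC library 2 (edgeR adjusted p up to 0.0557). Of 16 other intermediate filament genes tested, 2 rose and 2 fell, a share near the 26.8% of all genes, and their median was 0.33. The counts became 5 higher and 1 lower with the GC and length offset. NEFL, the light neurofilament chain, rose by 0.52 on the log2 scale, while LMNB2, a nuclear lamin, fell by 0.34 and IFFO2 fell by 0.75. LMNB2 was at -0.13 with the offset, where its call was lost (edgeR adjusted p = 0.117), and it was also lost in 4 of the 6 fits that left out a library. LMNA, the A-type lamin, was at -0.19 and did not pass, and it was at 0.13 with the offset.

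Plakins, desmosomes and hemidesmosomes tie keratin filaments to the cell's edge. Of 22 such genes tested, 5 rose and 1 fell, a share near the 26.8% of all genes, with a median of 0.20. The counts became 7 higher and 3 lower with the GC and length offset. The plakin genes DST and MACF1 rose by 1.55 (SE 0.20) and 1.40 (SE 0.19) on the log2 scale. DSG2, a desmosomal cadherin, rose by 1.15 and ITGA6, a hemidesmosomal integrin chain, by 0.74. With the GC and length offset these 4 were at 0.72, 0.84, 0.73 and 0.38, and ITGA6 lost its call (edgeR adjusted p = 0.082), as it did in 4 of the 6 fits that left out a library. The other gene that rose was PKP2, a desmosomal plaque protein (0.72), and the one that fell was LAMB3, a laminin chain (-0.59), both named after their values were seen. PLEC, the plakin that links intermediate filaments to hemidesmosomes, was abundant at 363 ± 25.9 and 357 ± 27.2 FPKM (SD, n = 3 each). At a log2 fold change of -0.14 it did not pass, but with the offset it was at -0.41 and called lower (edgeR adjusted p = 0.00112). DSP, the desmosomal linker of keratins, was at 0.107 and 0.0696 FPKM, and DSG1, DSG4 and DSC1 were listed at 0.

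Epithelial markers were mixed. Of the 29, 6 had a mean of at least 1 FPKM over the libraries. Mean FPKM in Lv_NC was 1.26 for EPCAM, 0.118 for CDH1, 0.00863 for TP63 and 0 for GRHL2, while OVOL1 was listed at 0 in all libraries. OVOL2, the paralogue of OVOL1, was at 2.31 and 2.95 FPKM and PRSS8, a membrane protease, at 1.20 and 1.01. SFN, a 14-3-3 protein of epithelia, was far above the others at 256 ± 28.0 and 326 ± 22.3 FPKM (SD, n = 3 each), and CLDN4 was at 11.0 and 8.22. Of 21 epithelial markers tested, 1 rose and 1 fell, beside 14.3 and 12.5% of all genes, and the median of the 21 was 0.09. SFN fell by 0.51 on the log2 scale and MUC1, a membrane mucin, rose by 0.81. With the offset SFN was at -0.01 and lost its call, and MUC1 (0.92) and CLDN4 (0.51) were called higher. SFN and MUC1 each lost the call in 3 of the 6 fits that left out a library. The summed FPKM of the 29 epithelial markers ran from 262 to 312 in Lv_LINC00673 and from 319.7 to 363 in Lv_NC, nearly all of it SFN.

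Of 13 epidermal differentiation genes tested, 3 rose and 2 fell, beside 14.3 and 12.5% of all genes. Their median was -0.19, and it was 0.51 with the GC and length offset. SPRR2D, a cornified envelope protein, fell by 1.31 from 18.2 ± 1.77 FPKM (SD, n = 3) in Lv_NC, and SBSN fell by 0.66. With the offset SPRR2D was at -0.82, and SBSN was at -0.20 with its call lost (edgeR adjusted p = 0.273). SBSN and HRNR each lost the call in 4 of the 6 fits that left out a library. FLG, HRNR and TCHH, large proteins of the cornified layer and hair sheath, rose to 282, 299 and 252% of their Lv_NC level on the TMM scale, from means of 0.111, 0.0471 and 0.138 FPKM. CNFN was at -0.19 and did not pass, and RPTN, SPRR1B, S100A7, S100A8 and CALML5 were listed at 0.

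Among transcription factors known to bind keratin promoters, most AP-1 genes fell. Of 14 tested, 7 fell and 2 rose, beside 12.5 and 14.3% of all genes, with a median of -0.40 against 0.05 for all genes. FOS fell by 1.13 (SE 0.13, edgeR adjusted p = 0.00297) and JUN by 1.10 (SE 0.10, edgeR adjusted p = 0.00132) on the log2 scale. The FPKM of JUN went from 341 ± 15.3 to 177 ± 13.6 (SD, n = 3 each). FOSB fell by 1.00, and FOSL1, the most abundant FOS family gene here, by 0.49, although FOSL1 was at 0.00 with the GC and length offset. SP3, an SP1-like factor, rose by 1.01, and SP1, named after its value was seen, by 0.55. With the offset SP3 was at 0.42 and SP1 at 0.17 with its call lost (edgeR adjusted p = 0.158), FOS was at -0.75 and JUN at -0.81, and 6 of the list were lower and 1 higher. In the 6 fits that left out a library, FOS, FOSB and JUN kept their calls, while FOSL1 and SP3 lost theirs in 4 and SP1 in 2. KLF5, an epithelial KLF factor, had a mean of 11.0 FPKM in Lv_NC, while KLF4, TFAP2A and TFAP2C were at or under 0.129 in the group means.

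Of 10 osteoblast and mesenchymal genes tested, 4 rose and 1 fell, beside 14.3 and 12.5% of all genes, with a median of 0.41. RUNX2, the master factor of osteoblasts, rose by 1.25 and ZEB1, a repressor of epithelial genes, by 1.17 on the log2 scale. CDH2, the mesenchymal cadherin, rose by 0.56, and ALPL, alkaline phosphatase of bone, by 0.50. SPARC fell by 0.36 and COL1A1, at 0.14, did not pass. With the GC and length offset 5 were higher, COL1A1 among them, and 2 lower, SPARC and SNAI2. SNAI2, named after its value was seen, was at -0.39 without the offset and did not pass. Under the offset it was at -0.58 (edgeR adjusted p = 0.0402), RUNX2 at 1.06 and ZEB1 at 0.61. In the 6 fits that left out a library, RUNX2 kept its call, while ALPL lost it in all 6, CDH2 in 4, SPARC in 3 and ZEB1 in 2. Of 5 blood and endothelial genes tested, 0 passed in edgeR, beside 26.8% of all genes. At an unadjusted p under 0.05, 1 was higher and 0 lower, and 0 were called by DESeq2 or limma. With the offset CD68 was called higher, at 0.34.

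**Figure D4:**
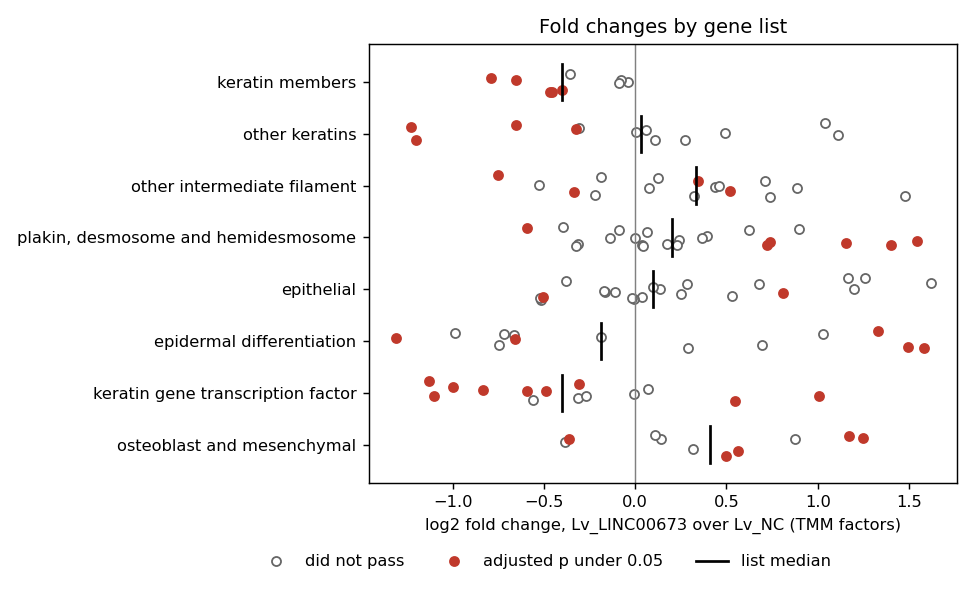
Log2 fold change (horizontal axis) of each tested gene in 8 lists (rows), filled red where the adjusted p was under 0.05, with a black line at each list's median. Medians are -0.40 for the 9 tested keratins described above and for the transcription factors, and between -0.19 and 0.41 for the rest.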

How the data were processed

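RNA was sequenced from 6 U2OS libraries, 3 per group, after a TruSeq RNA library preparation per the labels' protocols. The authors deposited raw read counts per gene and FPKM values per gene. Per the submitters' processing notes the build is hg38. For the aligner, counter, annotation, strand setting and FPKM length model, no entry is given in the sources used. All columns matched a library by name (0 unmatched). Rows without a symbol, 6056 of 50550 with 3.22 to 4.26% of counts, stayed in library sizes and tests and are not named.

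In edgeR 4.0.16 (R 4.3.3), filterByExpr kept 21933 genes, TMM factors set the scale, and the robust quasi-likelihood test was two-sided. Benjamini-Hochberg adjustment ran over all 21933 genes, with a threshold of 0.05. Adjusted p-values are from this fit unless named otherwise. Standard errors (SE) were taken as the absolute log2 fold change over the root of F. The intervals given are 95% intervals. Levels are compared between genes only in FPKM. Floors (3 counts) cover counting error only. In a simulation of this comparison on 21579 genes, 97.5% of 200 genes changed 2-fold were recovered, with 10 false calls. It gave all genes the same fixed dispersion, changed only genes of at least 1 CPM and held no trend with GC or length. It checks the code, and its rates need not hold for these data or for smaller changes.

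Members and lists were chosen with earlier results of these data known. The genes named are all members, every other keratin with at least 30 counts in all, the 3 most abundant pseudogene and antisense rows, and from each list the members past the threshold with the largest change (at most 4) and the 2 or 3 of highest FPKM. FLG, HRNR, TCHH, PKP2, LAMB3, SP1, SNAI2, KRT34-2 and the low or absent markers beyond that rule were named after their values were seen.

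Alternatives were RLE factors, library totals, no filter, 1 CPM in 3 libraries, a replicate block, a GC and length offset, DESeq2 1.42.0, limma 3.58.1 on log2(FPKM + 1) and log2(FPKM + 0.1), and leaving out each library. The offset needs annotated GC and length, which 16180 tested genes have. Its first construction normalized libraries more than once and was corrected after its values were seen. Gene positions and transcripts are from GENCODE on GRCh38, the files' build, and promoters from RefSeq. Other rows of these tables were not used here. One comparison of coding sequences between keratins is not reported here.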

Additional observations from a re-analysis of the deposited data

How the results depend on the processing

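Over the fold changes of the 9 tested keratins, 109 of 161 alternative values moved by less than 1 SD between replicates and 52 moved further. No value called in the main fit changed sign. KRT7, KRT10, KRT79 and KRT222, which the main fit did not call, changed sign in some fits. KRT7 went from -0.04 to 0.42 with the GC and length offset, where it was called higher. For KRT75, KRT81, KRT18, KRT8 and KRT80 all 18 alternatives were below 0, and those for KRT81 ran from -0.77 to -0.21. The count of 5 keratins past the threshold became 3 with the GC and length offset (2 lower, 1 higher) and 0 with the offset and a replicate block together. It ran from 3 to 6 over the fits that left out one library. The 5883 genes past the threshold became 3431 with block and offset together and ran from 2716 to 6490 over the fits without one library. With a replicate block alone, 2 keratins and 1208 genes passed. Deviations of same-numbered libraries correlated at -0.42, -0.36 and 0.04, and those of differently numbered libraries at -0.14 to 0.45. Deviations from a mean of 3 libraries depend on each other, so these values cannot show whether same-numbered libraries belong together. As no label ties them, the block is kept as an alternative only. The share of keratin FPKM from KRT81, KRT8 and KRT18 was 89.8% on TMM CPM per kilobase of GENCODE length, chosen after seeing the data, against 90.5%. FOSL1 went from -0.49 to 0.00067 with the offset and to 0.0028 with offset and block. CD68 went from -0.11 to 0.34 with the offset and to 0.29 with the offset's own centre. Of the other named genes' values, 858 kept the call or the lack of one, 143 lost the call, 23 gained it and 4 reversed. A reversal here is a change of sign where either fit called the gene. The cause of these shifts was not tested. The offset with its own centre was also added after seeing the data. Lengths from RefSeq were not run, as that table was used here only for spans. The 3 reads that a count of 0 allows limit what can be said of KRT19.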

Other observations

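Keratin-associated proteins, the matrix proteins that cross-link hair keratins, had 137 rows, of which 57 held counts and 10 could be tested. These rows were looked at after the keratin values were seen. In edgeR 4 fell and 0 rose, beside 12.5 and 14.3% of all genes. At an unadjusted p under 0.05, 9 were lower and 0 higher, beside 18.5 and 21.3%. DESeq2 called 8 lower and 0 higher, beside 16.8 and 16.7%, and limma on FPKM 3 lower and 0 higher, beside 5.59 and 14.7%. Of the 10, 9 belong to the KRTAP2 and KRTAP4 groups of genes with near-identical copies. How reads were assigned among the copies is not known, so these rows cannot be taken as independent. KRTAP2-3 was at 28.0 ± 2.79 FPKM in the Lv_LINC00673 libraries and 37.3 ± 1.60 in those of Lv_NC (SD, n = 3 each), a fall of 0.57 on the log2 scale (edgeR adjusted p = 0.0125), and it was at -0.04 with the GC and length offset. Its copy row KRTAP2-3-2 fell by 0.54, KRTAP2-4-2 fell by 0.70, and KRTAP21-2, with 30 counts in all Lv_LINC00673 libraries and 115 in all Lv_NC libraries, fell by 1.78. With the offset KRTAP2-1 was at -0.23, KRTAP2-2 at -0.19 and KRTAP2-4 at -0.15, and none of these was called. KRTAP2-3 and KRTAP21-2, the latter at -1.44, lost their calls with it (edgeR adjusted p = 0.797 and 0.098). The other KRTAP rows were not in that fit. In the 6 fits that left out a library, KRTAP2-3 lost its call in 2, KRTAP2-3-2 in 3, KRTAP2-4-2 in 4 and KRTAP21-2 in all 6.

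Among rows for keratin pseudogenes and antisense transcripts, KRT87P (log2 fold change -0.42), KRT18P55 (-0.40), KRT10-AS1 (-0.14) and KRT7-AS (0.24) did not pass, and KRT17P5-2 had too few counts to be tested. The KRT87P row held 231, 180 and 19 counts in Lv_LINC00673 and 101, 302 and 233 in Lv_NC.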
